A study of Caenorhabditis elegans with 2 samples.

Results

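GC-rich promoter summits are the peak tops of EGRH-3 chromatin immunoprecipitation (ChIP-seq) that lay near the 5' end of a protein-coding gene on unusually GC-rich DNA. They were taken from the conservative peak list, which rested on both replicates. A summit was a member when a protein-coding transcript had its 5' end close by, with the summit no farther than 1000 bp upstream or 200 bp downstream of it. It also had to lie outside every coding exon, farther than 200 bp from any tRNA, snRNA or snoRNA gene, and on DNA with 55% or more G and C, counted over the summit base and 50 bp on either side, the window used throughout. Of 2194 nuclear summits, 845 lay in a promoter window and 621 were left after both exclusions. Of these, 278 met the GC threshold and 343 did not; the latter are called AT-richer promoter summits and serve as the comparison. The threshold fell in a crowded range. It left 39 members just inside, at 55.4% GC, and 37 AT-richer summits just outside, at 54.5%.

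The worms were Caenorhabditis elegans of strain RW12196, in which CRISPR had inserted a TY1, EGFP and 3xFLAG tag into egrh-3 at its own place on chromosome IV. Whole young adults aged 65 h, synchronised by bleaching and starvation of first-stage larvae, were sonicated to fragments of 200 to 800 bp, and an antibody against GFP was used for the immunoprecipitation. The data were 1 group of 2 biological replicates, given as peak lists, so the sequencing depth is unknown and no condition could be compared with another. No list from untagged worms is used, so enrichment that does not depend on the tag cannot be told apart from binding at any summit. Signals from whole animals do not say which cells carried them. Positions are on WBcel235, the assembly also called ce11.

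EGR proteins are zinc finger transcription factors whose mammalian members recognise GC-rich elements built around GTGGGCG, and NAB proteins are their cofactors. The worm genome is AT-rich and lacks the long CpG islands of vertebrate promoters, so short GC-rich stretches stand out in it. Many worm transcripts are trans-spliced, which removes the first part of the RNA, so an annotated 5' end can lie downstream of the place where transcription starts. Closely spaced genes that are transcribed away from each other, called divergent pairs, share the DNA between their 5' ends.

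The sequences at the strongest summits show what the members look like. The windows of 7 of the 12 strongest members are printed from the plus strand of the RefSeq WBcel235 assembly, to show how varied the strongest sites were. Capitals mark runs of 6 or more G or C.
unk-1, chrX:8017372-8017472: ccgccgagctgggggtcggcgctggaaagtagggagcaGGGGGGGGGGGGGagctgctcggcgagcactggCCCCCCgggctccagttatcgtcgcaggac
ntl-2, chrII:4376914-4377014: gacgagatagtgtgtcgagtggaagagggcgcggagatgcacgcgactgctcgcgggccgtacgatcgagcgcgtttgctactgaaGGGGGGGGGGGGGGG
Y66A7A.4, chrIII:11611830-11611930: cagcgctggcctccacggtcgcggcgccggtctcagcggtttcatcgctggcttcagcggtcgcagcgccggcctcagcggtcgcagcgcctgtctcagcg
grk-1, chrX:9999674-9999774: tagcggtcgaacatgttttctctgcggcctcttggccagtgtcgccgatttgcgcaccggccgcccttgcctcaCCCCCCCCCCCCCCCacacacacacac
Y39A1A.9, chrIII:10634175-10634275: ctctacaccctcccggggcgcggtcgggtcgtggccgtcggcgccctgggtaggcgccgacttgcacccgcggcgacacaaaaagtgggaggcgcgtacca
spat-3, chrX:4606475-4606575: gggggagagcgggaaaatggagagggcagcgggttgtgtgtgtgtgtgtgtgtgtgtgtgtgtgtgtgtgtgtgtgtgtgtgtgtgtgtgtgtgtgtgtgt
atf-6, chrX:12480595-12480695: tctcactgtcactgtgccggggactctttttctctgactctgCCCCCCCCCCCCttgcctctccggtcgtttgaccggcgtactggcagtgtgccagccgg
The 7 windows differ in kind. The windows of unk-1, ntl-2, grk-1 and atf-6 hold a run of 12 to 15 G or C, that of spat-3 is mostly a repeat of GT, and that of Y66A7A.4 repeats similar units of its own. The ntl-2 and atf-6 windows were intergenic. Those of grk-1, Y39A1A.9 and spat-3 had their summits in exons of annotated noncoding RNA genes, that of Y66A7A.4 in an intron of the neighbouring gene Y66A7A.9, and that of unk-1 in an intron of unk-1, upstream of an internal 5' end.

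The 4 strongest members lay at unk-1, ntl-2, Y66A7A.4 and grk-1. Signal here means the strength the authors' caller gave a peak, without a stated scaling, and the value in each replicate was read from that replicate's own ranked list. At unk-1, which encodes a zinc finger protein of the Unkempt family, replicate 1 read 1453 and replicate 2 read 630.4, and the summit lay 508 bp upstream of the nearest 5' end. At ntl-2, which encodes part of CCR4-NOT, the complex that shortens mRNA tails, the values were 1373 in replicate 1 and 328 in replicate 2. Replicate 1 was the higher at both genes. At grk-1, a receptor kinase that turns off signalling to G proteins, they were 1332 and 332 in replicates 1 and 2. Y66A7A.4 had the lowest ratio of replicate 1 to replicate 2 among the 20 strongest members, 1.41, from 999 in replicate 1 and 709.8 in replicate 2. A weaker summit 496 bp upstream of the gene, with GC of 74.3%, was covered by the same regions and so read the same values.

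Further down the order, 3 of the 20 strongest members lay at pde-6, egl-30 and gsa-1. The summit between pde-6, a cyclic nucleotide phosphodiesterase, and Y95B8A.6 read 1025 in replicate 1 and 305 in replicate 2. It lay 85 bp upstream of pde-6 and 120.0 bp upstream of Y95B8A.6, on the 205 bp between their 5' ends. At egl-30, the alpha subunit of a Gq protein, a summit 136 bp inside an annotated 5' end read 626 and 315, and a second one, 31 bp upstream of another 5' end of the gene, read 461 and 149. At gsa-1, the Gs alpha subunit, a summit 296 bp upstream read 598 in replicate 1 and 142 in replicate 2. Its neighbour 93 bp upstream lay under the same region in replicate 1 and read 42.7 in replicate 2. These 3 genes all lie on chromosome I. Each of these summits was higher in replicate 1.

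The transcription regulators among the 20 strongest were atf-6, myrf-1, hlh-30 and madf-9. atf-6 encodes a membrane-bound factor of the endoplasmic reticulum stress response, and its summit 303 bp upstream read 603 in replicate 1 and 206 in replicate 2. myrf-1, a membrane-bound factor of the myelin regulatory factor family, read 543 and 177. hlh-30, the worm counterpart of the lysosome and autophagy regulator TFEB, read 516 and 149, and madf-9, which encodes a MADF domain protein, read 498 and 150.2. The order of these 4 genes was the same in replicate 1, whereas in replicate 2 hlh-30 and madf-9 differed by about 1 unit. The rest of the 20 were ain-1, a GW182-type protein of microRNA silencing, spat-3, a RING finger protein, eat-20, a transmembrane protein with EGF repeats, the pairs dlc-1 with nduf-2.2 and fbxb-7 with Y20C6A.1, and 5 genes known only by sequence names: Y66A7A.4, Y48G8AR.8, Y39A1A.9, T28F4.1 and Y71A12C.2. The summit nearest to fbxb-7, an F-box gene, was the most uneven of the 20, at 964 in replicate 1 and 100.7 in replicate 2. All 20 were higher in replicate 1, by a median of 3.04 times, and all overlapped a peak in the thresholded list of each replicate.

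**Figure D1:**
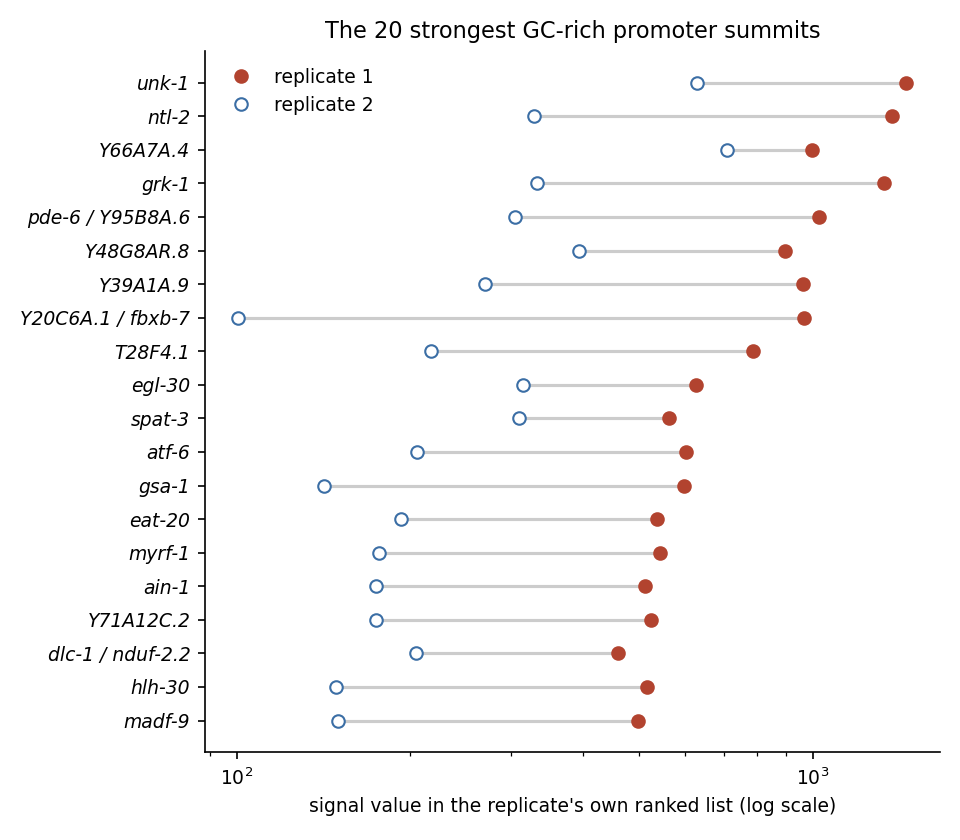
Signal value of the 20 strongest GC-rich promoter summits in each replicate's own ranked list, on a log axis; filled points are replicate 1, open points replicate 2, and names are nearest genes or both genes of a divergent pair. Replicate 1 lies to the right of replicate 2 in all 20, from 1.41 times at Y66A7A.4 to 9.58 times at fbxb-7.

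A summit upstream of mab-10 was the member most closely tied to EGR biology by its gene. mab-10 encodes the worm NAB protein, which acts in the change from larva to adult. Its summit, at 10527757 on chromosome II and 327 bp upstream, read 325 in replicate 1 and 71.3 in replicate 2, and GC there was 66.3%. Of the 5 genes in the list of EGR zinc fingers and NAB, it was the only one with a GC-rich promoter summit, and 1 other had an AT-richer one; of all protein-coding genes, 1.66% had the first and 2.17% the second. The intergenic window around it is shown next to 3 of the members that hold GTGGGCG or GTGGGTG in either orientation. Capitals mark these cores or, in the mab-10 window, CGCGAC.
mab-10, chrII:10527707-10527807: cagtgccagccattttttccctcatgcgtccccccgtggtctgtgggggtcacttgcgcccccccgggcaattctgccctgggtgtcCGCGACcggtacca
Y50D4A.6, chrV:1199621-1199721: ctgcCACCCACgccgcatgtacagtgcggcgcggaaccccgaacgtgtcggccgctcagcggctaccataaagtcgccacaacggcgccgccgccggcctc
ubc-6, chrII:7478885-7478985: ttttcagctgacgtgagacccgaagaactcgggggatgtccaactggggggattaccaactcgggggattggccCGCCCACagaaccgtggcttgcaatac
srab-10, chrV:3145386-3145486: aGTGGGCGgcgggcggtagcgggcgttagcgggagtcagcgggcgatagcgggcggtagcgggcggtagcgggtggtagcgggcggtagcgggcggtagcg
The mab-10 window held neither core. The srab-10 window, the most GC-rich of all members at 76.2%, repeats similar units and lies in an intron of the neighbouring gene srab-11, and its core lies at bases 2 to 8 of the window.

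The EGR core was rare among the members. GTGGGCG or GTGGGTG, searched on both strands, occurred in the windows of 12 members (4.32%), against 1.46% of AT-richer summits. Among all GC-rich positions of promoters, that is, positions that met every part of the rule whether or not they carried a summit, 8.23% of windows held one of the cores, and among all eligible promoter positions 1.28% did. The longer form GCGNGGGCG was found at 1 member. The members with a core were not the strongest: none of the 20 strongest held one, and their median signal was 139.9 against 169 for all members. The 3 shown above read 425 in replicate 1 and 122 in replicate 2 at Y50D4A.6, 150.1 and 123 at ubc-6, and 189 and 28.4 at srab-10. No match says only that these letters are not in the window.

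Other sequence patterns were more frequent at the members than at GC-rich promoter positions in general. These comparisons describe shares and were not tested, and the patterns beyond the motifs searched were chosen after their values were seen. A stretch of 6 G or 6 C occurred at 22.7% of members and 11.8% of GC-rich promoter windows. GAGAGA or its complement TCTCTC occurred at 30.2% against 18.05%, while the share at AT-richer summits was 27.4%. The GC box GGGCGG had a similar share at members and in GC-rich promoter windows, 19.1% against 18.3%. The promoter element CCAAT occurred at 13.7% against 15.02%, and TATAAA was found at 1.80% of members and 1.58% of these windows. The windows were not matched to the members in GC content, so what GC content alone gives was not tested. The E2F-like GCGCGAA, the E-box CACGTG, the cyclic AMP element TGACGTCA, the GATA site CTGATAA, AAAAAAAA and CACACACA were searched too, and were each found at 0 to 3.96% of members and 0.411% to 3.496% of these windows. The splice acceptor pattern TTTCAG, which marks trans-splice sites in worm genes, occurred at 5.396% against 4.30%. GGGCGG can overlap GTGGGCG, and GAGAGA can recur within longer GA repeats, so these shares are not independent.

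Long runs went with high signals. Runs of 12 or more G or C were present at 16 members (5.76%) and at 3.21% of AT-richer summits. They were also present at 8.97% of GC-rich summits outside promoters and coding exons and in 3.02% of GC-rich promoter windows. They stood at 5 of the 20 strongest members, at 9 of the next 119 and at 2 of the remaining 139. The 5 were unk-1, ntl-2, grk-1, fbxb-7 and atf-6, with the longest run, of 21, at fbxb-7. Members with such a run had a median signal of 363, against 163 for the others, and a median ratio of replicate 1 to replicate 2 of 2.93 against 1.76. Their median GC was also higher, at 63.9% against 60.4%. How well reads map to such runs was not tested.

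Among all 6-base words found at 28 or more members, ACGCGA had the largest ratio of its share at members to its share in GC-rich promoter windows, 2.21 (12.6% against 5.70%). CGCGAC followed with 2.09 (16.5% against 7.92%), GTGCGA with 2.00 and ACACTC with 1.95 (14.7% against 7.57%). CGCGAC was found at 8 of the 20 strongest members and at 15 of the 50 members in divergent pairs. The first 2 words overlap by 5 letters. They are shown in capitals, with ACACTC and with the complements of all 3, in windows of 2 divergent pairs and of rpl-3, a ribosomal protein gene.
dlc-1, chrIII:6464355-6464455: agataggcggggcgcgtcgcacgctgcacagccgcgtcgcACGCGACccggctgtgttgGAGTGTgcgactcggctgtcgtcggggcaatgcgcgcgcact
tasp-1, chrIII:10759199-10759299: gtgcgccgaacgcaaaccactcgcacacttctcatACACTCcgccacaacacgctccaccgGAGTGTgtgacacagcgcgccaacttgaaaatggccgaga
rpl-3, chrIII:3867531-3867631: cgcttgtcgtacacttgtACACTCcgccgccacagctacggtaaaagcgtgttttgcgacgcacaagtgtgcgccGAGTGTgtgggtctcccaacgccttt
The tasp-1 and rpl-3 windows, both intergenic, each hold ACACTC and, farther along the strand, its complement GAGTGT. These 2 summits also had nearly equal signals in the replicates. tasp-1 read 316 in replicate 1 and 304 in replicate 2, and rpl-3 read 245 and 249.6. dlc-1, whose summit lay in an exon of a noncoding RNA gene, read 459 and 205.

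The rule selected members for GC at the summit, so the values there describe the selection, and the flanks show how far it reached. In windows of 51 bp, mean GC was 62.9% (SD 7.05 over 278 summits) at the summit, 45.8% at 100 bp upstream and 38.6% at 250 bp upstream. By 500 bp upstream it was 35.9%, against 36.2% around AT-richer summits. The AT-richer summits showed a lower peak of the same kind, with 49.5% at the centre. The median member had 60.4% GC in its window, and members ranged from 55.4% to 76.2%. CpG dinucleotides were as frequent as base composition gives in both classes, with a median observed to expected ratio of 1.12 at members and 1.17 at AT-richer summits.

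**Figure D2:**
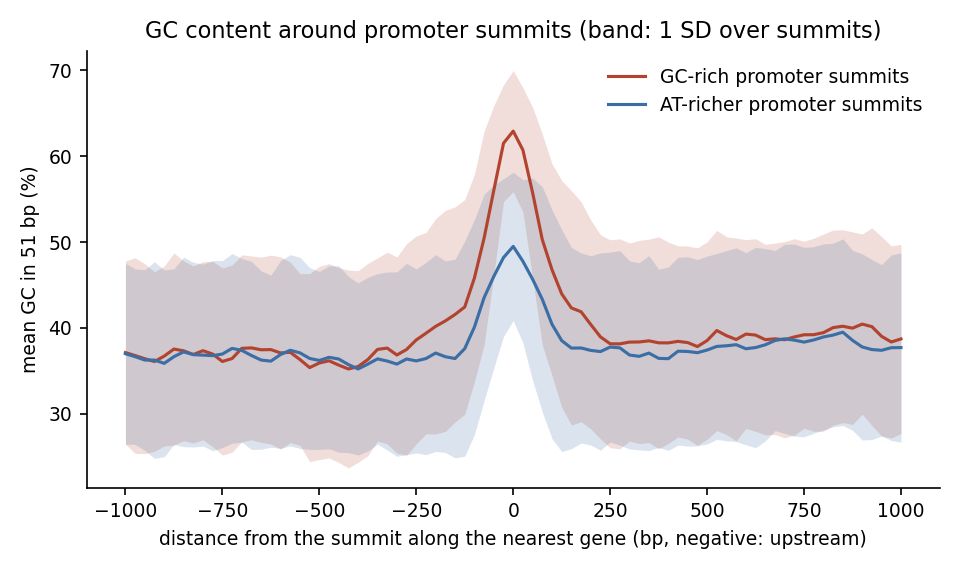
Mean GC content in 51 bp windows at distances along the nearest gene from GC-rich (red, 278) and AT-richer (blue, 343) promoter summits; bands are 1 SD over summits. The red curve falls from 62.9% at the centre to 38.6% at 250 bp upstream, where the blue curve is at 36.2%.

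GC-rich positions were scarce in promoters and summits were common on the most GC-rich of them. Of 20377274 promoter bases that met the position rules, 1.16% had 55% GC or more around them, whereas 44.8% of the 621 promoter summits did. Adjoining bases of this kind formed 14248 stretches. A summit stood on 0.454% of the 12343 stretches whose highest GC was under 60%, on 6.29% of those from 60% to 65%, and on 20.8% of those from 65% to 70%. It stood on 51 of the 99 stretches that reached 70% (51.5%, exact 95% interval 41.3 to 61.7). Stretches also grew longer with their highest GC, from a median of 3 bp in the lowest class to 121 bp in the highest, so a longer stretch offered more room for a summit. Stretches that were mostly masked as repeats carried a summit less often than others when their highest GC was 60% or more, 6.09% of 230 against 12.4% of 1675.

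The 2 replicates did not carry the members equally. Of 274 members with a signal in both ranked lists, 243 were higher in replicate 1, against 179 of 323 AT-richer summits. The median ratio of replicate 1 to replicate 2 was 1.85 (interquartile range 1.24 to 2.93) at members and 1.05 (0.847 to 1.37) at AT-richer summits. A peak of replicate 1's own thresholded list overlapped 247 members (88.8%) and 229 AT-richer summits (66.8%). That difference was larger than counting error (22.1 percentage points, adjusted p = 1.60e-10; two-sided Fisher's exact test over summits, adjusted by Benjamini-Hochberg over the 7 shares tested, as are all adjusted p values below). A peak of replicate 2's list overlapped 179 members (64.4%) and 224 AT-richer summits (65.3%), a difference that did not pass the same exact test (adjusted p = 0.866). With summits taken from replicate 1's own list it did pass, at 45.8% against 58.8% (exact adjusted p = 0.00241). The global irreproducible discovery rate measures how well a peak repeats between replicates, and 1014 of the 2194 summits had 0.001 or less. Among these, replicate 1's list overlapped 99.4% of members and 99.1% of AT-richer summits. With nearly all of both classes in that list, there was almost no room for a difference. Among members, 167 were in both lists, 80 only in that of replicate 1, 12 only in that of replicate 2 and 19 in neither. Summits are not replicates of a condition, and with 1 group these p values measure only the counting error over summits. The list of replicate 1 was the longer one, with 2850 nuclear summits against 1439.

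**Figure D3:**
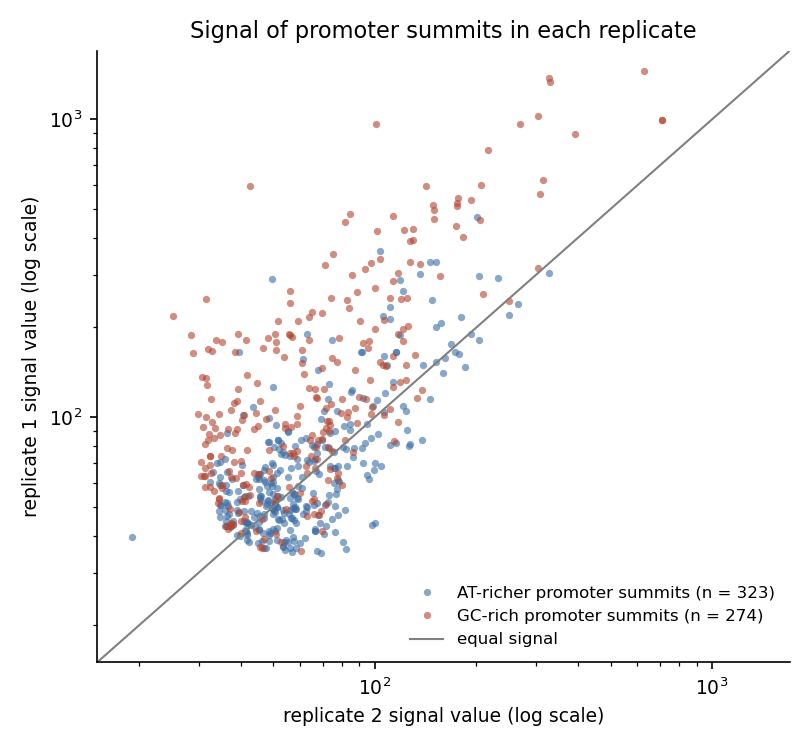
Signal value in replicate 1 against replicate 2 for the 274 GC-rich (red) and 323 AT-richer (blue) promoter summits with a value in both ranked lists, on log axes with the line of equal signal. Most red points lie above the line, with a median ratio of 1.85, and the blue points lie around it, with a median of 1.05.

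The replicate difference went with GC content. At AT-richer summits the median ratio stayed between 1.02 and 1.06 from under 45% to 55% GC. It was 1.30 from 55% to 60%, 2.08 from 60% to 65%, 3.09 from 65% to 70% and 3.52 at 12 summits of 70% or more. Over the 274 members, GC and the ratio had a Spearman rho of 0.6003, GC and the replicate 1 signal 0.507, and GC and the replicate 2 signal 0.063. These correlations run across summits that share the same 2 libraries, and they are descriptions. GC-rich summits outside promoters and coding exons showed the same tendency, with a median ratio of 2.32 over 354 summits, as did those in coding exons, with 2.60 over 538. Whether library preparation or sequencing differed in its GC dependence between the replicates was not tested.

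Members were stronger than AT-richer promoter summits. Their signal in the conservative list had a median of 169 (interquartile range 115.6 to 277), against 109.5 (92.8 to 152). It exceeded the median of all nuclear summits at 173 members (62.2%) and at 105 AT-richer summits (30.6%; adjusted p = 2.68e-14, Fisher's exact test). The summits' signals in the single replicates differed to unequal extents. In replicate 1 the median was 106.4 at members and 58.9 at AT-richer summits. In replicate 2 it was 62.6 (interquartile range 40.1 to 95.6) against 56.6 (46.7 to 77.4), so the ranges overlapped widely and the members' lower quartile was the lower one. When the rule was applied to replicate 2's own list, 69.5% of 167 GC-rich and 40.3% of 295 AT-richer summits were above that list's median (exact test, adjusted p = 1.09e-08). With replicate 1's own list it was 62.3% of 358 against 31.5% of 279 (exact test, adjusted p = 7.76e-14). Replicate 2 alone thus left 167 GC-rich summits in place of 278. The weakest member, with a signal of 18.8, was a side summit at pbrm-1.

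**Figure D4:**
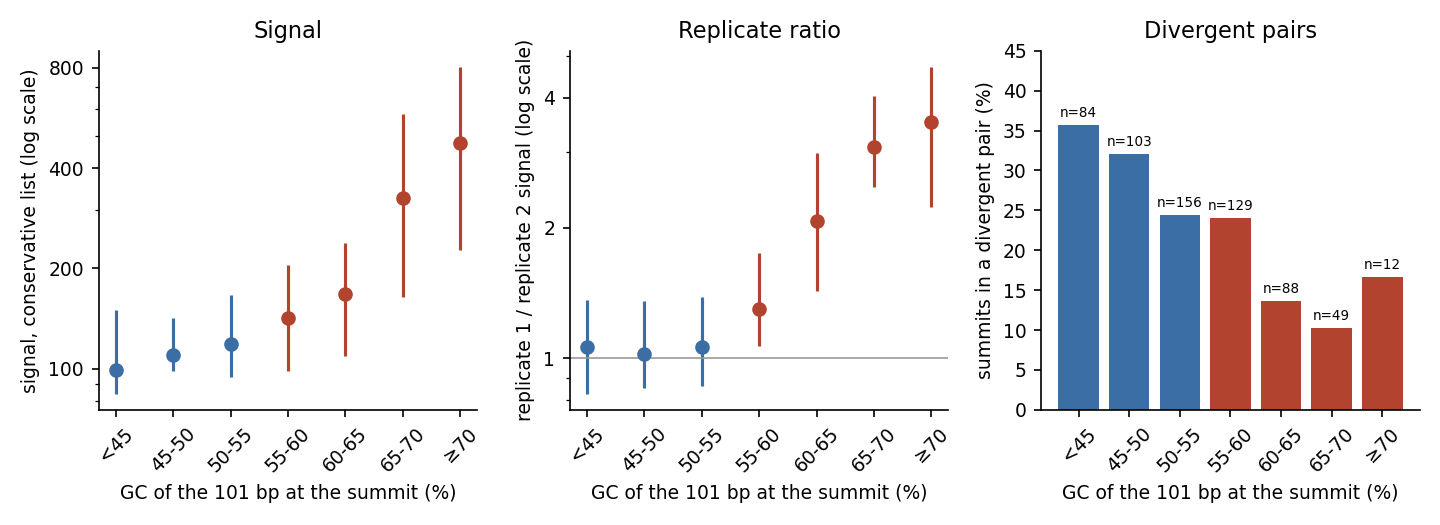
Promoter summits in bins of GC content, AT-richer in blue and GC-rich in red: median signal in the conservative list and median ratio of replicate 1 to replicate 2 signal, both on log axes with interquartile ranges, and the share of summits in a divergent pair with the number of summits per bin. The median signal goes from 99.2 below 45% GC to 474 at 70% or more. The divergent share goes from 35.7% below 45% to 10.2% between 65% and 70%, and is 16.7% (2 of 12 summits) at 70% or more.

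Members lay upstream of genes, at varied distances. Of the 278, 258 were upstream of the nearest 5' end and 20 at it or downstream. The median distance was 304 bp, against 235 bp for AT-richer summits. There were 81 members within 200 bp upstream, 73 between there and 400 bp and 104 farther than that. The share within 200 bp of a 5' end on either side was 36.3% for members and 42.9% for AT-richer summits, a difference of 6.53 percentage points that did not pass the test (adjusted p = 0.117, Fisher's exact test). With replicate 1's own list alone the difference passed (34.9% against 44.4%, exact adjusted p = 0.0205), as it did with GC counted over 100 bp on either side (30.4% against 43.9%, exact adjusted p = 0.00238). At GC-rich promoter positions in general the share was 33.2%. The nearest member on the upstream side was larp-5, at 2 bp, the nearest on the downstream side was unc-43, at 4 bp, and ant-1.1 lay exactly at its 5' end. larp-5 encodes a La-related RNA-binding protein, ant-1.1 a mitochondrial ADP/ATP carrier and unc-43 the calcium/calmodulin-dependent kinase CaMKII.

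**Figure D5:**
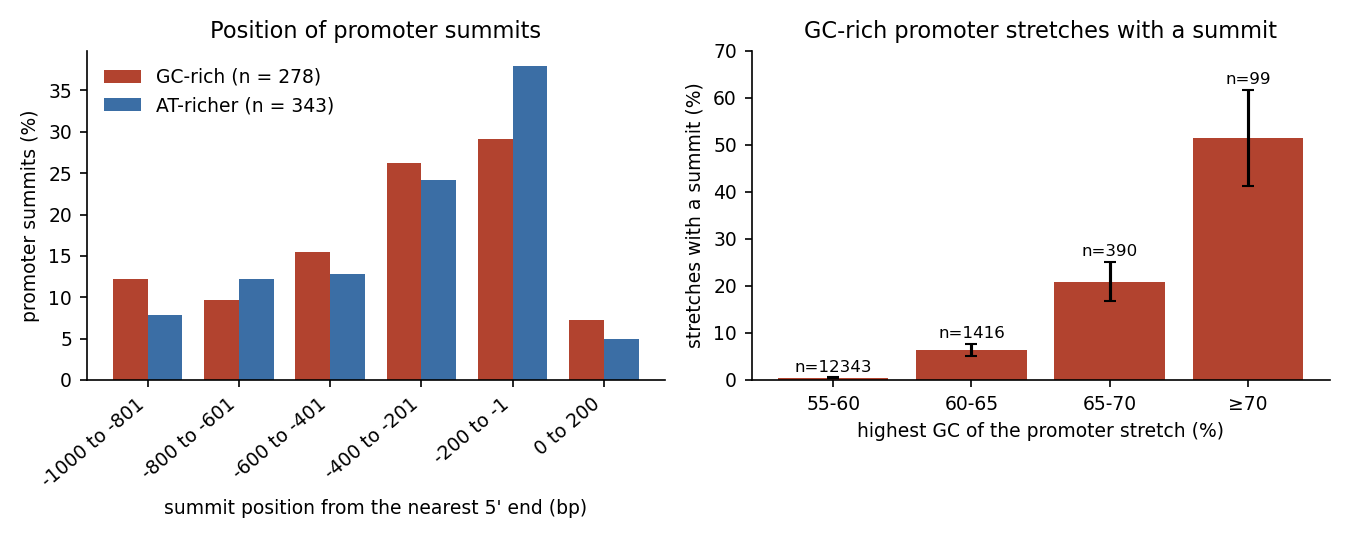
Left, share of GC-rich (red) and AT-richer (blue) promoter summits by position from the nearest 5' end in bp, negative upstream. Right, share of GC-rich promoter stretches that carry a summit by their highest GC, with exact 95% intervals and the number of stretches; it rises from 0.454% of 12343 stretches to 51.5% of 99.

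The members' surroundings often included other transcripts. The summit lay in an exon of an annotated noncoding RNA gene at 44 members (15.8%), against 6.41% of AT-richer summits and 9.65% of GC-rich promoter bases. Among the 20 strongest this was so at 7. At 24 members (8.63%) the summit was in an untranslated region, against 4.96% of AT-richer summits. Within the span of some protein-coding gene lay 80 members (28.8%), against 23.9% of AT-richer summits. The summit base was masked as a repeat at 15.5% of members and 29.7% of AT-richer summits, and 15.2% of GC-rich promoter bases were masked.

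Divergent pairs were less common at members than at AT-richer summits. A summit counted as divergent when it lay in the windows of 2 genes transcribed away from each other. This was so at 50 members (17.99%, exact 95% interval 13.7 to 23.01) and at 29.4% of AT-richer summits (24.7 to 34.6), an odds ratio of 0.525 (adjusted p = 0.00228, Fisher's exact test). With replicate 2's own list alone the shares were 20.96% and 28.8% and did not pass (exact adjusted p = 0.108), and with replicate 1's alone they were 12.8% and 27.2% (exact adjusted p = 1.56e-05). Among the 1014 summits with a discovery rate of 0.001 or less the shares were 19.9% and 27.6% (exact adjusted p = 0.259). Both classes exceeded the share of promoter bases that lie between such pairs, which was 8.81% of all eligible bases and 8.39% of the GC-rich ones. Among stretches that reached 60% GC, 20.3% of 177 divergent ones carried a summit, against 10.7% of 1728 others.

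The divergent members differed from the rest in more than their position. Their 5' ends were a median of 613 bp apart, from 92 bp at ears-2 and uncp-18 to 1780 bp. Their median GC was 58.4%, against 60.4% for the 228 other members, and their median ratio of replicate 1 to replicate 2 was 1.23 against 2.02. The strongest were the pairs at pde-6, fbxb-7 and dlc-1, followed by tasp-1 with K01G5.10 and by mdt-26, a Mediator subunit, with ift-43, a gene of transport in cilia. The mdt-26 summit, 6 bp upstream, read 389 in replicate 1 and 127 in replicate 2. Several pairs joined genes of protein synthesis with a neighbour. rpl-7 shared its summit with rab-11.1, a small GTPase of recycling vesicles, and read 202 and 125. rps-23 shared one with dpm-3 and read 148 and 108.0, and ears-2, a glutamyl-tRNA synthetase, read 124 and 138. In ears-2 the order of the replicates was reversed.

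Chromosome X held more of the members. Of the 278, 64 (23.02%) were on X, against 48 of 343 AT-richer summits (13.99%; adjusted p = 0.00785, Fisher's exact test). X also held 22.4% of GC-rich promoter bases and 16.1% of all eligible promoter bases, so the members' share was near that of the DNA they could lie on. The difference did not pass with promoters cut to 500 bp upstream (20.3% against 13.0%, exact adjusted p = 0.0562) or with coding-exon summits kept (16.9% against 13.3%, exact adjusted p = 0.270). Only 2 of the 64 were divergent, and their median distance to a 5' end was 399.5 bp, against 257.5 bp on the autosomes. On the autosomes, 62 of 214 members (29.0%) lay in the middle of 3 equal parts of their chromosome, against 119 of 295 AT-richer summits (40.3%; adjusted p = 0.0122, Fisher's exact test). At the discovery rate of 0.001 or less neither X (exact adjusted p = 0.112) nor the middle parts (exact adjusted p = 0.259) passed, and the latter also did not pass with a GC threshold of 50% (exact adjusted p = 0.0559). Worm autosomes carry their conserved and broadly used genes mostly in the centres. Whether this bears on the members' share was not tested, and the share of GC-rich promoter bases in the middle parts is not given here.

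The members belonged to many kinds of genes. In all, 332 of 19973 protein-coding genes had a GC-rich summit in a promoter window (1.66%), and 433 had an AT-richer one (2.17%). These shares are the background for the counts that follow, which are descriptions without a test. Only 21 genes had both kinds, 6.33% of the first set and 4.85% of the second. At 222 members there was 1 promoter gene, at 52 there were 2 and at 4 there were 3. Of the 273 nearest genes, 80 had only a sequence name, and 132 of the 332 genes (39.8%) were in at least 1 of 38 gene lists. The matching shares over all protein-coding genes are not given here, and 2 of the lists were made after the members had been seen. These 2 counts therefore do not say whether the members' genes differ from others.

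Ribosomal protein and respiration genes were present above the background, at a moderate median GC and with similar signals in the replicates. Of 81 cytosolic ribosomal protein genes, 6 (7.41%) had a GC-rich promoter summit and 15 (18.5%) an AT-richer one, against backgrounds of 1.66% and 2.17%. Both kinds thus exceeded their backgrounds, and the trait was not particular to GC-rich summits. rpl-3 led, followed by rpl-7 and by rps-23 at 148 in replicate 1 and 108.0 in replicate 2. Their median ratio of the replicates was 1.26. Of 53 genes of mitochondrial respiration, 5 (9.43%) had one and 4 an AT-richer one, led by cox-5B, a subunit of cytochrome c oxidase, at 82.8 and 114, then hpo-18 and atp-5, both subunits of ATP synthase. The other members of this list, cyc-2.1 and nuo-3, overlapped no peak of either replicate's own thresholded list. hpo-18, atp-5 and nuo-3 shared their summits with a divergent neighbour and were not the nearest gene. The hpo-18 summit is also that of mcm-7 in the cell cycle list. Of 79 translation factors and tRNA synthetases, 3 had one and 4 an AT-richer one: ears-2, the elongation factor eef-1A.2 and the poly(A)-binding protein pab-2. The proteasome and ubiquitin list had 2 of 135, against 5 with an AT-richer one, the conjugating enzymes ubc-6 and ubc-3. The median GC of these 4 lists lay between 56.4% and 59.4%.

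Heat shock and DnaJ chaperone genes were also present above the background. Of 61 heat shock and DnaJ genes, 5 (8.20%) had a GC-rich promoter summit and 8 (13.1%) an AT-richer one, so both kinds exceeded their backgrounds. hsp-3, an Hsp70 chaperone of the endoplasmic reticulum, led with 299 in replicate 1 and 156 in replicate 2, at 26 bp upstream. The mitochondrial chaperonin hsp-60 read 117 and 90.01, and dnj-14 read 64.4 and 45.4. A list of 47 genes of entry into the endoplasmic reticulum and folding there was made after the members had been seen. Its count is therefore not independent of them and cannot be read against the background. The list had 10 genes with a GC-rich summit (21.3%) and 5 with an AT-richer one. They were atf-6, hsp-3, the protein disulfide isomerase pdi-2 (473 and 113), the second Hsp70 chaperone hsp-4 (58.3 and 31.4), enpl-1, crt-1, sec-61.B, trap-2, trap-3 and ile-2. enpl-1 and crt-1 encode the chaperones endoplasmin and calreticulin, and sec-61.B and the trap genes encode parts of the channel through which proteins enter. trap-2 and ile-2 shared 1 divergent summit, at 132 in replicate 1 and 119 in replicate 2, and trap-3 and sec-61.B shared another, at 92.2 and 71.8.

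Signalling through G proteins had 8 of 104 genes with a GC-rich promoter summit (7.69%) and as many with an AT-richer one. They were grk-1, pde-6, egl-30, gsa-1, the G protein beta subunit gpb-1 (333 and 127), the protein kinase C pkc-1 (352 and 75.3), the catalytic subunit of protein kinase A kin-1 (219 and 25.2) and the G protein regulator rgs-4 (78.9 and 36.5). Their median signal of 599 and median ratio of 3.69 were above the members' medians of 169 and 1.85. An AT-richer promoter summit read the same replicate 1 value as kin-1, 219, and 105.9 in replicate 2, so 1 replicate 1 region may cover both. Ion channels had 2 of 296, and 1 with an AT-richer summit, the calcium channel subunit unc-2 (452 and 81.8) and the acetylcholine receptor subunit acr-12. Synaptic and pan-neuronal genes had 4 of 102, and 4 with an AT-richer summit, led by unc-43, aex-3 and rbf-1. Kinases and phosphatases had 5 of 118, against 10 with an AT-richer summit, led by mnk-1, kin-1 and the Eph receptor vab-1. Wnt, Notch, TGF-beta and EGF signalling had 1 of 103, against 2, the Frizzled receptor mig-1.

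Vesicle traffic and the cytoskeleton followed. Small GTPases and vesicle traffic had 12 of 173 (6.94%), the largest count of any list, against 8 with an AT-richer summit, led by rab-11.1, by vps-39, a tethering protein of lysosomes (197 and 121), and by trap-2. Cytoskeleton and dynein genes had 8 of 136 (5.88%), against 5, led by dlc-1, ift-43 and the profilin pfn-2 (185 and 48.1). The vacuolar ATPase and solute transport list had 6 of 227, against 3, led by vha-13, a subunit of the proton pump (212 and 107). Epidermal junction genes had 2 of 69, as many as with an AT-richer summit, eat-20 and the polarity gene par-2. Body-wall muscle genes had 2 of 69, against 5, zyx-1 and the myosin heavy chain unc-54. Lipid and central metabolism had 4 of 246, led by pck-2, at the background, against 8. aldo-2, an aldolase of that list, was one of the members with a higher value in replicate 2, 41.4 against 69.7.

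Several lists of RNA regulation, chromatin and transcription were above the background too. RNA binding and mRNA decay had 9 of 192 (4.69%), fewer than the 15 with an AT-richer summit, led by unk-1, ntl-2 and lin-66. Chromatin regulators had 8 of 191 (4.19%), fewer than the 18 with an AT-richer summit, led by lin-9, a subunit of the DRM complex (144 and 87.5), pbrm-1 and set-16. A second list, of SWI/SNF, bromodomain and histone acetyl or methyl enzyme genes, was made after the members had been seen. Its count, 10 of 82 (12.2%) against 4, is therefore not independent of them and cannot be read against the background. The list included dot-1.1, a histone H3 lysine methyltransferase (482 and 84.1), the bromodomain gene bet-2, the acetyltransferase gene cbp-1 (55.5 and 60.2), the SWI/SNF subunits swsn-1 and swsn-7, and pbrm-1. Of these, swsn-7 had no region in the ranked list of replicate 1 over its summit. The swsn-7 peak still overlapped a peak of that replicate's thresholded list. A mixed list of other transcription factors, made mainly for zinc finger and bZIP families but also holding MADF domain genes and the bHLH gene hlh-30, had 8 of 121 (6.61%), against 4 with an AT-richer summit, led by atf-6, hlh-30 and madf-9. The list of GATA, bHLH, forkhead, T-box and SOX factors had 5 of 89 (5.62%), against 3, led by hlh-30, hlh-11 (251 and 125) and mdl-1 (184 and 78.4). Stress and insulin signalling had 3 of 57, against 2, atf-6, hlh-30 and the 14-3-3 protein ftt-2.

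Of the remaining lists, cell cycle and heterochronic genes exceeded the background of both kinds of summit. Cell cycle and mitosis had 4 of 126 (3.17%), against 13 with an AT-richer summit, led by klp-7, mcm-7 and mcm-3AP. Heterochronic genes, which time development, had 2 of 19 (10.5%), against 6, mab-10 and lin-66 (181 and 121). Homeobox genes had 2 of 105, against 1, unc-42 and ceh-39, and nuclear hormone receptors had 4 of 274, against 5, led by nhr-48 (249 and 119). Large families expressed in few cells or under particular conditions were rarely represented. Chemoreceptors had 4 of 1309, led by sri-71, sri-37 and srab-10, against 6 with an AT-richer summit. F-box, MATH and BTB genes had 3 of 448, fbxb-7, fbxa-176 and fbxo-11.2, against 1, and innate immunity effectors had 2 of 470, clec-123 and clec-104, against 0. Collagens named col had 1 of 156, col-95, against 2. The list of cuticle collagens named for body shape and cuticle enzymes had 1 of 117, the enzyme pdi-2, against 1. Histones (84 genes), neuropeptides and insulins (143), detoxification enzymes (227), hedgehog-related and Patched-related genes (91) and sperm genes (146) had none. AT-richer summits stood at 4 histone genes (4.76%, against a background of 2.17%), 1 gene of the neuropeptide and insulin list and 1 sperm gene. The detoxification and hedgehog lists had no AT-richer summit either.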

How the data were processed

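Peak lists of 2 biological replicates and of both together were used. The deposited signal value of a peak is the authors' measure of its strength, with no stated scaling, and was used to rank and describe peaks. Also deposited by the authors were −log10 values, for the q-value of a peak or, in the ranked list, its global irreproducible discovery rate (IDR), and a whole-number score, which was not used. All lists are on ce11 per the file headers. Aligner and peak caller: not given in the sources used here. The depth is unknown. Summits were classed with the Ensembl release 115 annotation and the RefSeq WBcel235 sequence. Replicate signals are those of the strongest region in the replicate's own ranked list that covers the conservative summit. A divergent summit lay in the windows of a minus-strand and a plus-strand gene, with the 5' end of the former not downstream of that of the latter. Lists overlapped when peaks shared 1 bp or more.

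The 7 shares were compared between GC-rich and AT-richer promoter summits by two-sided Fisher's exact tests with Benjamini-Hochberg adjustment (threshold 0.05). Intervals are exact (Clopper-Pearson), at 95%, and cover counting error only. The census of promoter bases applied the same rule to every base. The members and lists were chosen with earlier results of these data known. Named were the nearest genes of the 20 strongest members, the 3 strongest of each of 36 lists, those nearest a 5' end and the strongest with an EGR core or in a divergent pair. No member is named for lying next to the GC threshold, because those members tie. Some that are named for other reasons lie there, at 55.4%, among them spat-3, lin-66 and hlh-11. Other genes, the 2 added lists, the runs and the 6-base words were chosen after their values were seen. The classing and the test were checked on simulated summits. Alternatives were the larger list, other GC thresholds and windows, a shorter promoter, a stricter IDR, outermost 5' ends, 1 summit per interval, coding-exon summits kept, each replicate's own list, a stricter overlap, other distances and a closer pair. Python 3.11.15, numpy 2.4.6, pandas 2.3.3 and scipy 1.17.1 were used.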

Additional observations from a re-analysis of the deposited data

How the results depend on the processing

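Values are the share at GC-rich minus that at AT-richer summits, in percentage points. The higher share above the median signal kept its direction and its call in all alternatives, with 29.1 to 30.7 from single replicates. The number of GC-rich promoter summits was 434 at a GC threshold of 50%, 149 at 60%, 184 with GC over 100 bp on either side, 156 at a global IDR of 0.001 or less, and 167 to 358 from single replicates. At that IDR, which leaves 1014 of 2194 summits, the calls ended for divergent pairs (-7.71), chromosome X (11.2) and the middle parts of autosomes (-10.1). The call for replicate 1's list ended too (0.221), but with 99.4% and 99.1% overlapped there was almost no room for a difference. From single replicates the values were -14.4 to -7.86 for divergent pairs, -9.53 to -1.26 within 200 bp of a 5' end, 25.1 for replicate 1's list, -12.97 for replicate 2's list (which then passed), 12.7 to 15.5 for X and -14.96 to -10.7 for the middle parts of autosomes. The call for X also ended with promoters from 500 bp upstream (7.26) and with coding-exon summits kept (3.53), and that for the middle parts of autosomes at 50% GC (-9.32). The share within 200 bp of a 5' end passed the test with GC over 100 bp on either side (-13.5) and changed sign, still short of the test, at 100 bp (1.28). That for replicate 2's list changed sign, also short of it, with GC over 100 bp on either side (3.55) and promoters from 500 bp (3.26). The cause was not tested. No paired analysis was possible because the 2 samples form 1 group.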
